A study of Mus musculus with 8 samples.

Results

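The tumor suppressor p53 and 9 of its target genes were followed across the fusion of extended pluripotent stem cells (EPSCs) with neural stem cells (NSCs). The 10 genes were taken by symbol (Trp53, Mdm2, Cdkn1a, Bax, Bbc3, Ccng1, Phlda3, Trp53inp1, Aen, and Sesn2) from the 24354 genes listed, and all 10 had a mean FPKM (fragments per kilobase of transcript per 1000000 mapped fragments) of at least 1 in at least 1 group, as did 13239 genes in all. Poly-A RNA of 4 groups was sequenced in 2 libraries each. ESCs were the E14 line, labelled wild type, in serum and LIF on mitomycin C-inactivated C3H fibroblast feeders. NSCs carried the Oct4-GFP (OG2+/-) and ROSA26+/- transgenes and were grown with EGF and FGF2 on gelatin, without feeders. EPSCs were a C57BL/6 line (line 1, passage 15), also labelled wild type, in N2B27-LCDM medium, which contains LIF, CHIR99021, dimethindene maleate, and minocycline, on inactivated feeders. Hybrid cells (line 2-2, passage 10) were made by polyethylene glycol fusion of EPSCs and OG2/ROSA26 NSCs, picked as a GFP-positive colony, and kept in the EPSC medium on feeders, and are tetraploid according to their label. Each group was a single line, so the spread describes repeated libraries and not independent derivations or fusions. Transcript levels do not measure p53 protein, its modification, or its binding to DNA, none of which was measured here.

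p53, encoded by Trp53, is a transcription factor that is held low by continuous degradation and accumulates after DNA damage, oncogene activity, or abnormal mitosis. Mdm2, itself a p53 target, is the ubiquitin ligase that drives this degradation, so the pathway limits itself. Other targets arrest the cell cycle (Cdkn1a, which encodes p21), release cytochrome c from mitochondria (Bax and Bbc3), or adjust metabolism and survival signals (Sesn2 and Phlda3). In pluripotent cells Trp53 mRNA is known to be abundant, and a gain of chromosome sets is a known trigger of p53 in many somatic cells.

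The promoters show how differently the members carry the sequence that p53 reads, so those with the closest matches are given. The p53 response element consists of 2 copies of a 10-base consensus motif separated by 0 to 13 bases. Such pairs were searched on the promoter windows of RefSeq (GRCm38.p6, 250 bases before to 50 after an annotated start), which held 9 of the 10 members in 13 windows. The motif reads alike on both strands, and mismatches were counted over both copies together. Capitals mark the 2 copies of the best pair in the first annotated start of each gene, which lies at chr17:29090729-29091028 (plus strand) for Cdkn1a, chr11:40755237-40755536 (minus strand) for Ccng1, chr7:45466849-45467148 (minus strand) for Bax, and chr7:78895677-78895976 (plus strand) for Aen.
Cdkn1a: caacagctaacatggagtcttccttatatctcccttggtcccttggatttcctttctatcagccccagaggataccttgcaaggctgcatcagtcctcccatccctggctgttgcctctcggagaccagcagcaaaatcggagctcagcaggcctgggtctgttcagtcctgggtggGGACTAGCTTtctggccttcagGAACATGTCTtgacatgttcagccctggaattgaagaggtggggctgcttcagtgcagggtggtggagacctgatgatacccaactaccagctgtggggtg
Ccng1: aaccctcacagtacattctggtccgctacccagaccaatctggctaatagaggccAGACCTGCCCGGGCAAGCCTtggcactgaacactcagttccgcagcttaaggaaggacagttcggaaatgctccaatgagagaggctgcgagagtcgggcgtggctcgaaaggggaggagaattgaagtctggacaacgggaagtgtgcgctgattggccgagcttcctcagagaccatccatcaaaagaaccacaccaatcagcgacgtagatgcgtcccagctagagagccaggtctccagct
Bax: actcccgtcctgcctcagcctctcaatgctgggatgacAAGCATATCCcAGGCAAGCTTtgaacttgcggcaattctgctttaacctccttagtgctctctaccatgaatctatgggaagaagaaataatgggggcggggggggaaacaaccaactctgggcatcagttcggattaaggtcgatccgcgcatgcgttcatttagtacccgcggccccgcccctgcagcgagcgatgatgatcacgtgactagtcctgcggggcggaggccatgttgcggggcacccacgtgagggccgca
Aen: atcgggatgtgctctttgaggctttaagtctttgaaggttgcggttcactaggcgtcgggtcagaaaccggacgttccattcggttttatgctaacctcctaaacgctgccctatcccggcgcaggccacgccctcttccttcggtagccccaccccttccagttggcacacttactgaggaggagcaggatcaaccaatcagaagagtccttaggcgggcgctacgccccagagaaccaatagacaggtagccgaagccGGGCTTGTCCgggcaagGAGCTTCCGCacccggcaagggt
This Cdkn1a window held a pair without a mismatch, as did 0.0731% of the 32851 windows of all genes, whereas the best pair of the other Cdkn1a window, at chr17:29093519-29093818, had 5 mismatches. Bax and Ccng1 each held a pair with 1 mismatch, and 1.09% of all windows held a pair with at most 1. The best pair of Aen had 2 mismatches, a level reached by 10.1% of all windows. Trp53 and Bbc3 had 3 mismatches in their closest windows, as 45.1% of all windows do at most, and Mdm2, Phlda3, and Sesn2 had 4. These matches are descriptions of the letters only, and many p53 elements lie outside such windows, as the one in the first intron of Mdm2 does.

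All groups expressed every member in both libraries. Fragment numbers derived from the steps of the FPKM values put the depth of a library between 22.0 and 32.6 times 1000000 fragments, and the sparsest member, Bbc3 in NSC replicate 2, rested on about 347 fragments (5.37% counting error). FPKM summed to between 415240 and 653796 per library, lowest in NSCs, so the members and the counts of gene lists are also compared with NSCs after scaling each library to the same sum. All 10 pluripotency markers were at 1 FPKM or more in ESCs, EPSCs, and hybrid cells, against 1 of 10 (Klf4) in NSCs, and all 12 NSC markers were at 1 FPKM or more in NSCs, against 5 to 6 in the other groups. Of the 12 NSC markers, 2 were higher and 3 lower in hybrid cells than in EPSCs (limma, adjusted p under 0.05). The shares of all genes were 22.5% and 21.9%. Vim (1.01) and Cd44 (1.03 on the log2 scale) were the 2 higher, both over 2-fold. Mean FPKM of Nes, Slc1a3, and Olig2 was 4.46, 6.73, and 5.99 in EPSCs and 2.40, 3.28, and 3.81 in hybrid cells. Of the 10 pluripotency markers, 2 were higher and 2 lower, with Zfp42 (1.28) over 2-fold higher. Mean FPKM of Klf4 fell from 133 in EPSCs to 88.0 in hybrid cells, and that of Tdgf1 from 421 to 301. Fibroblast markers differed between groups, and whether their transcripts came from feeders was not tested. The 14 fibroblast markers summed to 23.9 and 24.7 FPKM in ESCs, 20.0 and 22.1 in NSCs, 96.1 and 96.4 in EPSCs, and 327 and 247 in hybrid cells, and 4 to 5, 4, 11, and 12 of them reached 1 FPKM, with Col1a2 and Lum listed at 0 in both NSC libraries. In bulk RNA, fewer cells of a type and less RNA per cell cannot be told apart, and neither can p53 gene transcripts of feeder cells and of the cultured line.

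**Figure D1:**
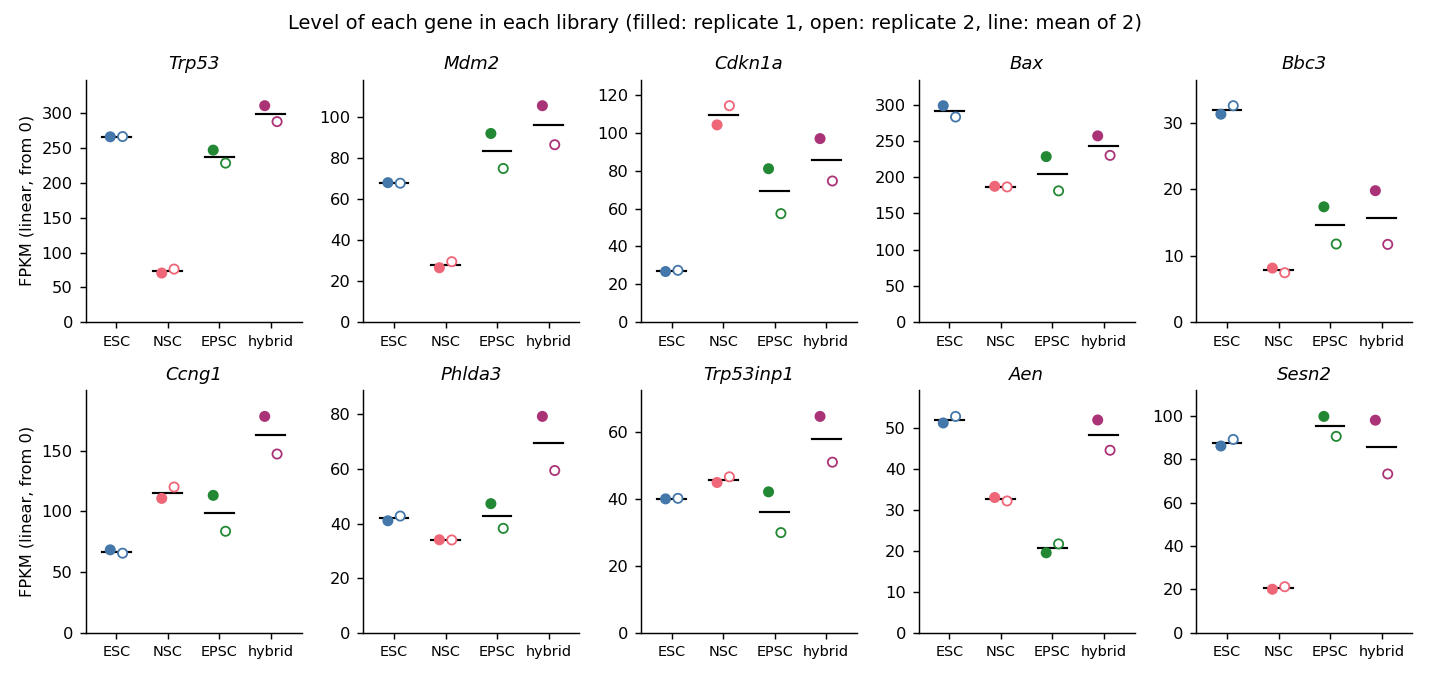
FPKM of the 10 genes in each library on linear axes from 0, with replicate 1 filled, replicate 2 open, and the mean of 2 libraries as a line. Trp53, Mdm2, and Sesn2 are lowest in NSCs, Cdkn1a is lowest in ESCs at 26.7 and 27.4 FPKM, and both hybrid libraries of Ccng1 and Phlda3 lie above every other library.

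Trp53 was abundant in the pluripotent lines and, as deposited, highest in hybrid cells. Its level was 311 and 288 FPKM in the 2 hybrid libraries, 247 and 228 FPKM in EPSCs, 266 and 267 FPKM in ESCs, and 70.5 and 76.2 FPKM in NSCs. The groups did not overlap, and NSCs stood far below the other 3. Trp53 was 1.26-fold higher in hybrid cells than in EPSCs (log2 fold change 0.33 ± 0.07, SE, adjusted p = 0.00634), with limma fitted to log2(FPKM + 1) over all 8 libraries and Benjamini-Hochberg adjustment over the 13239 genes, as in every test below. Against NSCs it was 4.04-fold higher (log2 fold change 2.02 ± 0.07, adjusted p = 7.2e-08), or 1.40 on the log2 scale at the same sum (adjusted p = 1.33e-07). Against ESCs the difference of 0.17 ± 0.07 on the log2 scale did not pass (adjusted p = 0.0566). Leaving out EPSC replicate 1, EPSC replicate 2, or hybrid replicate 2 brought the comparison with ESCs just below the threshold, at 0.0495, 0.0497, and 0.0381, whereas quantile normalization turned it to -0.084 (adjusted p = 0.153).

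Mdm2 followed the order of Trp53 in that NSCs were lowest. Its level was 106 and 86.5 FPKM in hybrid cells, 92.0 and 74.9 FPKM in EPSCs, 68.0 and 67.8 FPKM in ESCs, and 26.5 and 29.5 FPKM in NSCs. The hybrid and EPSC libraries overlapped, and the libraries of both groups lay above those of ESCs. For EPSCs, 45.8% of all genes lay above ESCs in this way. The log2 difference of Mdm2 between EPSCs and ESCs was 0.29, which did not pass (adjusted p = 0.0762). Mdm2 was 3.33-fold higher in hybrid cells than in NSCs (log2 fold change 1.74 ± 0.12, adjusted p = 4.14e-06, and 1.14 at the same sum) and 1.40-fold higher than in ESCs (0.49 ± 0.12, adjusted p = 0.00939). The latter call was lost without hybrid replicate 1 or ESC replicate 2, at 0.0506 and 0.0501. Against EPSCs the log2 difference was 0.20 with a 95% interval of -0.09 to 0.49 (adjusted p = 0.219). Over the 8 libraries Pearson's r with Trp53 was 0.97 for Mdm2 and 0.98 for Sesn2, on points that come in pairs from 4 lines and are led by the low NSC values.

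Cdkn1a, whose product p21 inhibits cyclin-dependent kinases, had another order, with NSCs highest and ESCs lowest. Its level was 104 and 114 FPKM in NSCs, 97.0 and 74.6 FPKM in hybrid cells, 81.0 and 57.3 FPKM in EPSCs, and 26.7 and 27.4 FPKM in ESCs. Hybrid cells and EPSCs overlapped, whereas no library of either overlapped with ESCs or NSCs. Cdkn1a was 3.07-fold higher in hybrid cells than in ESCs (log2 fold change 1.62 ± 0.17, adjusted p = 0.000147), and EPSCs were already 2.47-fold higher than ESCs (1.30 ± 0.17, adjusted p = 0.000534). Between hybrid cells and EPSCs the log2 difference was 0.31 with an interval of -0.09 to 0.72 (adjusted p = 0.176), and it passed only without EPSC replicate 1 (0.56, adjusted p = 0.0298). Between hybrid cells and NSCs it was -0.36 (interval -0.76 to 0.05, adjusted p = 0.0852). This difference was called lower after scaling to the same sum (-0.98, adjusted p = 0.000454), after quantile normalization (adjusted p = 0.00204), in a fit of the compared groups alone (0.0497), and without EPSC replicate 1, EPSC replicate 2, or hybrid replicate 1 (0.0294, 0.0296, and 0.0303).

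The ratio of Cdkn1a to Trp53 FPKM within a library, which is free of the scaling between libraries, separated NSCs and ESCs from the other groups. It was on average 1.49 ± 0.0162 (SD, n = 2) in NSCs, 0.312 and 0.259 in hybrid cells, 0.328 and 0.251 in EPSCs, and on average 0.101 ± 0.00159 (SD, n = 2) in ESCs. Hybrid cells and EPSCs overlapped, and their means were 0.285 and 0.289. The ratio of Cdkn1a to Mdm2 also had NSCs highest and ESCs lowest, with means of 3.90 in NSCs, 0.890 in hybrid cells, 0.823 in EPSCs, and 0.398 in ESCs. The ratios are given as descriptions, without a test.

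Ccng1 encodes cyclin G1, a target that acts on Mdm2 through a phosphatase, and was highest in hybrid cells as deposited. Its level was 178 and 147 FPKM in hybrid cells, 113 and 83.6 FPKM in EPSCs, 111 and 120 FPKM in NSCs, and 68.3 and 65.5 FPKM in ESCs. Both hybrid libraries lay above all others, whereas EPSCs and NSCs overlapped. Ccng1 was 1.66-fold higher in hybrid cells than in EPSCs (log2 fold change 0.73 ± 0.14, adjusted p = 0.00636) and 2.40-fold higher than in ESCs (1.26 ± 0.14, adjusted p = 0.000214). Against NSCs the log2 fold change was 0.49 ± 0.14 (adjusted p = 0.0141), but it turned to -0.13 after scaling to the same sum (adjusted p = 0.346) and to -0.03 after quantile normalization (adjusted p = 0.798). Without NSC replicate 1 or hybrid replicate 1 this last comparison did not pass either (0.0912 and 0.0875).

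Of the genes of mitochondrial apoptosis, Bax was highest in ESCs. Its level was 299 and 283 FPKM in ESCs, 257 and 230 FPKM in hybrid cells, 228 and 181 FPKM in EPSCs, and 187 and 187 FPKM in NSCs. Hybrid cells lay above EPSCs without overlap, by a log2 difference of 0.26 with an interval of 0.00 to 0.51, which did not pass the threshold over all genes (adjusted p = 0.0917). It passed after scaling, after quantile normalization, and with the replicate number as a block (adjusted p = 0.0484, 0.0353, and 0.0376). Without EPSC replicate 1 it was 0.42. Against ESCs the log2 difference of hybrid cells was -0.26, which did not pass (adjusted p = 0.0697). It passed at the same sum (-0.33, adjusted p = 0.0114) and after quantile normalization (-0.47, adjusted p = 0.00119). With the replicate number as a block and with the compared groups alone it also passed (adjusted p = 0.0257 and 0.0285). Against NSCs the direction depended on the scaling, at 0.38 ± 0.11 as deposited (adjusted p = 0.0117) and -0.24 at the same sum (adjusted p = 0.0279). The call as deposited was also lost without NSC replicate 1, NSC replicate 2, or hybrid replicate 1 (0.0573, 0.0596, and 0.0695). The exons of Bax share 192 bases with Gm45808 on the same strand, so its reads could be divided between them.

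Bbc3 encodes Puma, a BH3-only protein that frees Bax from its inhibitors, and was also highest in ESCs. Its level was 31.2 and 32.5 FPKM in ESCs, 19.8 and 11.7 FPKM in hybrid cells, 17.3 and 11.7 FPKM in EPSCs, and 8.12 and 7.42 FPKM in NSCs. Hybrid cells and EPSCs overlapped, and both spread more between libraries than ESCs did. Bbc3 was 2.03-fold lower in hybrid cells than in ESCs (log2 fold change -1.02 ± 0.24, adjusted p = 0.00726). Against EPSCs the log2 difference was 0.09 (interval -0.48 to 0.65, adjusted p = 0.799), with its sign turned by leaving out EPSC replicate 2 (-0.18) or hybrid replicate 1 (-0.27). Against NSCs it was 0.89 ± 0.24 (adjusted p = 0.00917) and did not pass at the same sum (0.33, adjusted p = 0.205) or without NSC replicate 2 (adjusted p = 0.0623).

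Aen, the apoptosis-enhancing nuclease, showed the largest difference between hybrid cells and EPSCs among the members. Its level was 51.9 and 44.5 FPKM in hybrid cells, 19.5 and 21.7 FPKM in EPSCs, 33.0 and 32.2 FPKM in NSCs, and 51.2 and 52.8 FPKM in ESCs. EPSCs were the lowest group, and hybrid cells overlapped with ESCs. Aen was 2.28-fold higher in hybrid cells than in EPSCs (log2 fold change 1.19 ± 0.08, adjusted p = 0.000152), a call that held in all 16 alternatives with adjusted p between 0.000109 and 0.00424. EPSCs in turn were 2.46-fold lower than ESCs (-1.30 ± 0.08, adjusted p = 2.46e-05). Between hybrid cells and ESCs the log2 difference was -0.11 (interval -0.31 to 0.09, adjusted p = 0.283), which passed only without hybrid replicate 1 (-0.22, adjusted p = 0.0446). Against NSCs it was 0.55 ± 0.08 (adjusted p = 0.000437) as deposited and -0.06 at the same sum (adjusted p = 0.567).

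Phlda3, an inhibitor of Akt, and Trp53inp1, a stress protein that binds p53 and acts in autophagy, were both highest in hybrid cells as deposited. Phlda3 was at 79.2 and 59.4 FPKM in hybrid cells, 47.3 and 38.3 FPKM in EPSCs, 41.0 and 42.8 FPKM in ESCs, and 34.1 and 34.0 FPKM in NSCs. Trp53inp1 was at 64.7 and 51.0 FPKM in hybrid cells, 42.1 and 29.9 FPKM in EPSCs, 40.0 and 40.2 FPKM in ESCs, and 44.9 and 46.6 FPKM in NSCs. For both genes the hybrid libraries lay above all other 6. Phlda3 rose 1.60-fold from EPSCs to hybrid cells (log2 fold change 0.68 ± 0.14, adjusted p = 0.00773) and also passed against NSCs (0.99 ± 0.14, adjusted p = 0.000284, and 0.39 at the same sum) and ESCs (0.70 ± 0.14, adjusted p = 0.00349), each in all 16 alternatives. Trp53inp1 likewise rose 1.60-fold from EPSCs (0.68 ± 0.16, adjusted p = 0.0128), but not without hybrid replicate 1 (0.51, adjusted p = 0.0599). Its difference from ESCs (0.51 ± 0.16, adjusted p = 0.0256) did not pass without either ESC library, either NSC library, or hybrid replicate 1 (0.0557 to 0.139 among them) or without the filter on low values (0.0526), and that from NSCs (0.32, adjusted p = 0.0947) passed without hybrid replicate 2 or either EPSC library (0.0344, 0.027, and 0.0272) and with the compared groups alone (0.0488), but turned to -0.29 at the same sum (adjusted p = 0.0887).

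Sesn2 encodes sestrin 2, which restrains mTORC1 and is also induced by ATF4, and had no call between hybrid cells and EPSCs. Its level was 97.9 and 73.2 FPKM in hybrid cells, 99.7 and 90.5 FPKM in EPSCs, 86.0 and 89.1 FPKM in ESCs, and 20.1 and 21.2 FPKM in NSCs. The hybrid libraries spanned the values of ESCs and overlapped with EPSCs. The log2 difference between hybrid cells and EPSCs was -0.16 (interval -0.46 to 0.13, adjusted p = 0.325). It passed as lower without hybrid replicate 1 (-0.37, adjusted p = 0.0118) and turned to 0.04 without hybrid replicate 2. Against NSCs Sesn2 was 3.96-fold higher (log2 fold change 1.99 ± 0.13, adjusted p = 2.26e-06), and it stayed called in all 16 alternatives, with 1.40 at the same sum.

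**Figure D2:**
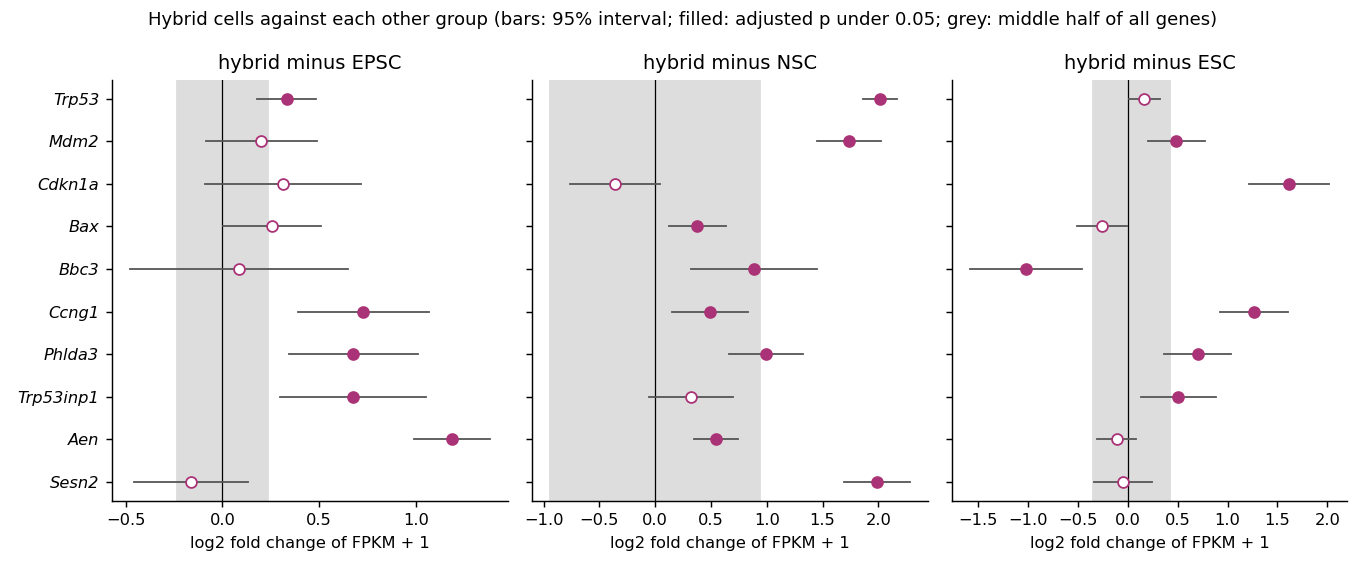
Log2 fold change of FPKM + 1 in hybrid cells against EPSCs, NSCs, and ESCs for the 10 genes, with 95% intervals, filled where the adjusted p was under 0.05, over the interquartile range of all 13239 genes in grey. Against EPSCs, 5 genes are filled, from Trp53 at 0.33 to Aen at 1.19, and only Sesn2 lies below 0.

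Counted together, 5 of the 10 members (Trp53, Ccng1, Phlda3, Trp53inp1, and Aen) were higher in hybrid cells than in EPSCs and 0 were lower, where 22.5% of all genes tested were called higher and 21.9% lower. The members had a median log2 fold change of 0.32, against 0.00 for all genes, and 9 of 10 lay above 0, against 49.8% of all genes. Both hybrid libraries exceeded both EPSC libraries for 6 members, against 34.5% of all genes. Only Aen was called with a change over 2-fold, as were 2.21% of all genes in that direction. By a rule of a mean FPKM over 3 and a ratio of means over 3, 0 members differed, where 1.04% of all genes were higher. Without hybrid replicate 1, the log2 fold change of Trp53inp1 was 0.51. Without EPSC replicate 1, that of Cdkn1a was 0.56 and that of Bax 0.42.

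The fibroblast markers moved in the same comparison. Of the 12 that were tested, 11 were higher in hybrid cells than in EPSCs and 0 were lower, where 22.5% and 21.9% of all genes were. Their median log2 fold change was 1.44. The largest differences were those of the matrix genes Col1a1 (1.79), Dcn (1.78), Col3a1 (1.78), and Lum (1.75). Their part in the differences of the p53 genes was not tested.

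Relative to NSCs, 8 members were higher in hybrid cells and 0 lower, where 44.5% and 42.0% of all genes were called. Cdkn1a and Trp53inp1 were the members without a call. Scaling to the same sum moved the median of all genes from 0.06 to -0.51 and left 4 members higher (Trp53, Mdm2, Phlda3, and Sesn2) and 2 lower (Cdkn1a and Bax), where 30.3% and 57.6% of all genes were. Relative to that shifted median, Trp53 was at 1.91, Sesn2 at 1.90, Mdm2 at 1.65, Phlda3 at 0.89, Bbc3 at 0.84, Aen at 0.45, Ccng1 at 0.38, Bax at 0.26, Trp53inp1 at 0.21, and Cdkn1a at -0.47. Among the members, only Cdkn1a lay below the typical gene on this scale. Ratios of means over 3 were reached by Trp53, Mdm2, and Sesn2 as deposited, where 12.7% of all genes were higher by this rule, and by 0 members at the same sum.

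Against ESCs, 5 members were higher in hybrid cells (Cdkn1a, Ccng1, Phlda3, Trp53inp1, and Mdm2) and Bbc3 was lower, with 35.3% and 30.2% of all genes called. Without ESC replicate 2, the log2 fold change of Mdm2 was 0.48 and that of Trp53inp1 0.51. Without hybrid replicate 1 they were 0.35 and 0.34, with Aen at -0.22 and Sesn2 at -0.26. Cdkn1a was the only member with a ratio of means over 3 (3.17), as 3.64% of all genes were in this direction, and this was lost without hybrid replicate 1. The comparisons of hybrid cells with EPSCs, NSCs, and ESCs share the hybrid libraries and are not independent of each other.

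The parental groups differed in 6 of the 10 members, where 86.2% of all genes were called. EPSCs exceeded NSCs in Sesn2 (log2 fold change 2.15 ± 0.13, adjusted p = 1.45e-06), Trp53 (1.68 ± 0.07, adjusted p = 1.72e-07), Mdm2 (1.54 ± 0.12, adjusted p = 8.55e-06), and Bbc3 (0.80 ± 0.24, adjusted p = 0.0147), where 45.2% of all genes were called higher. Cdkn1a (-0.67 ± 0.17, adjusted p = 0.00695) and Aen (-0.64 ± 0.08, adjusted p = 0.000177) were lower in EPSCs, where 41.0% of all genes were called lower. The call of Cdkn1a was lost without NSC replicate 2 (adjusted p = 0.0558), and that of Bbc3 without either NSC library or EPSC replicate 1 (0.0572, 0.0855, and 0.0935) and at the same sum (0.332). At the same sum, 3 members were higher (Sesn2 by 1.57, Trp53 by 1.08, and Mdm2 by 0.94) and 5 lower, where 30.7% and 56.8% of all genes were, with a median of all genes of -0.48. Without EPSC replicate 2, the log2 fold change of Bax was 0.29 and that of Phlda3 0.46. Without EPSC replicate 1, that of Ccng1 was -0.46 and that of Trp53inp1 -0.60.

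Between the diploid pluripotent lines, EPSCs exceeded ESCs in Cdkn1a and Ccng1 and were below them in Aen, Bbc3, and Bax, with 33.7% of all genes called higher and 27.3% lower. Ccng1 was 1.45-fold higher (log2 fold change 0.53 ± 0.14, adjusted p = 0.0149), which was lost without EPSC replicate 1, ESC replicate 1, or ESC replicate 2 (0.0613, 0.06, and 0.0793). Bbc3 was 2.15-fold lower (-1.11 ± 0.24, adjusted p = 0.00561) and Bax 1.43-fold lower (-0.51 ± 0.11, adjusted p = 0.00474). Trp53 differed by -0.16 on the log2 scale, which did not pass (adjusted p = 0.063). It was called lower in EPSCs at the same sum (-0.23, adjusted p = 0.00979) and after quantile normalization (-0.39, adjusted p = 0.000453). Without EPSC replicate 1, Trp53 was at -0.22 and Trp53inp1 at -0.41.

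Hybrid cells were then set against the midpoint of EPSCs and NSCs on the log2 scale, which is a geometric mean and lies below the arithmetic mean of the parents where these differ. Of the 10 members, 8 lay above it and 0 below, where 38.7% of all genes lay above and 38.5% below. Bbc3 (log2 difference 0.49, adjusted p = 0.0644) and Cdkn1a (-0.02, adjusted p = 0.906) did not pass. Bbc3 passed after quantile normalization (0.63, adjusted p = 0.0257) and with the replicate number as a block (adjusted p = 0.0227). It was at 0.62 without EPSC replicate 1 and at 0.84 without hybrid replicate 2. The differences of the other 8 ran from 0.32 for Bax to 1.17 for Trp53, and without hybrid replicate 1 those of Bax and Trp53inp1 did not pass (adjusted p = 0.113 and 0.105). At the same sum 6 members lay above, Bax and Trp53inp1 not among them (adjusted p = 0.963 and 0.186), and Cdkn1a lay below (adjusted p = 0.0498), where 3518 and 7017 of all 13239 genes did. Against the arithmetic mean of the parental FPKM, a comparison added after the data were seen and given without a test, both hybrid libraries were above for 9 members and below for 0, where 42.4% of all genes were above and 48.4% below. At the same sum 6 members were above and Cdkn1a was below, against 29.7% and 62.3% of all genes. For 6 members (Trp53, Bax, Ccng1, Phlda3, Trp53inp1, and Aen) both hybrid libraries exceeded all 4 parental libraries, as they did for 18.7% of all genes. At the same sum this held for Trp53 and Phlda3 alone, against 13.6% of all genes. Of the other 4, 1 hybrid library each of Mdm2 and Bbc3 exceeded all parental libraries as deposited (106 and 19.8 FPKM in replicate 1).

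The libraries of a group differed from each other in the p53 genes in EPSCs and hybrid cells, and much less in ESCs and NSCs. Replicate 1 was above replicate 2 for 9 of the 10 members in EPSCs, all but Aen, and for 10 of 10 in hybrid cells, where 52.7% and 52.8% of all genes were higher in replicate 1. For 9 members this held in both groups, against 35.8% of all genes. The median difference of the members, on the log2(FPKM + 1) scale, was 0.32 in EPSCs and 0.31 in hybrid cells, and -0.02 in ESCs and -0.06 in NSCs, while that of all genes was 0.01, 0.01, 0.01, and -0.02. Bbc3 differed most, by 0.53 in EPSCs and 0.71 in hybrid cells, and Cdkn1a by 0.49 and 0.37. The fibroblast markers differed by a median of 0.05 in EPSCs, with 6 of 12 higher in replicate 1, and by 0.33 in hybrid cells, with 11 of 12. With 1 pair of libraries per group these differences have no error of their own, and they set the width of most intervals above.

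**Figure D3:**
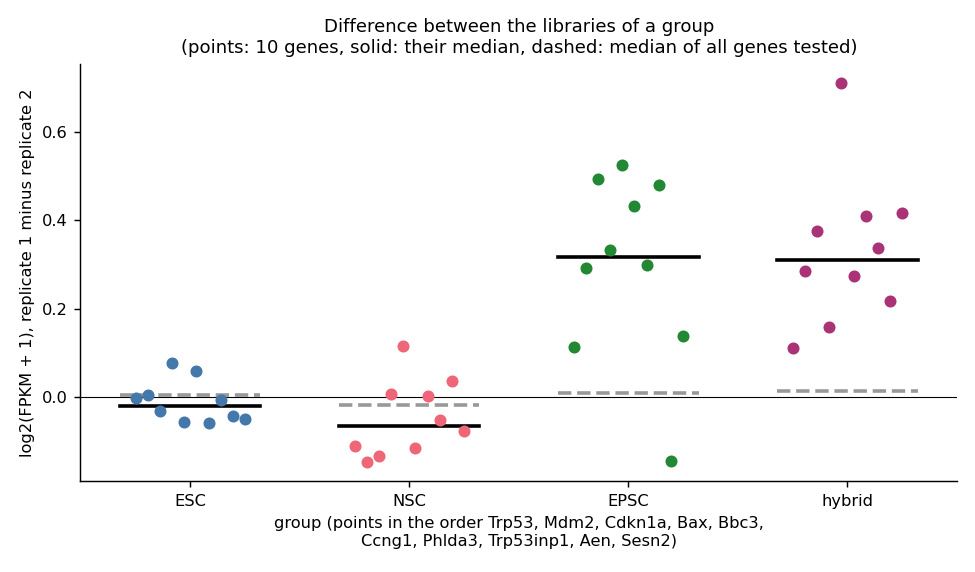
Difference of log2(FPKM + 1) between replicate 1 and replicate 2 within each group, with 1 point per gene in the order named on the axis, a solid line at their median, and a dashed line at the median of all 13239 genes. The EPSC and hybrid points lie mainly above 0, with medians of 0.32 and 0.31, and the ESC and NSC points lie around 0.

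A wider list of 39 other p53 targets was tested in the same fit. Of these, 16 were higher and 5 lower in hybrid cells than in EPSCs, where 22.5% and 21.9% of all genes were, with a median log2 fold change of 0.16. The targets changed more than 2-fold were Ephx1, an epoxide hydrolase (10.8 to 24.5 FPKM, log2 fold change 1.10 ± 0.15, adjusted p = 0.00142), Fas, a death receptor (0.817 to 2.81 FPKM, 1.06 ± 0.12, adjusted p = 0.000795), and Gadd45a, a growth arrest gene (56.5 to 27.2 FPKM, -1.04 ± 0.11, adjusted p = 0.00056). Chosen after their values were seen, Btg2 (0.75), Eda2r (0.58), and Zmat3 (0.39) were among those higher, and Tigar (-0.58) and Xpc (-0.30) among those lower.

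Against NSCs, 18 of the 39 other targets were higher and 16 lower in hybrid cells, shares near the 44.5% and 42.0% of all genes. At the same sum 13 were higher and 21 lower, where 30.3% and 57.6% of all genes were, and their median log2 fold change turned from 0.28 to -0.34. As deposited, those with the largest differences were the death genes Pmaip1, which encodes Noxa (log2 fold change 3.31 ± 0.30, adjusted p = 1.91e-05), Tnfrsf10b, a TRAIL receptor (3.06 ± 0.08, adjusted p = 2.83e-08), and Perp (2.93 ± 0.13, adjusted p = 3.89e-07), and the kinase Plk3 (2.83 ± 0.12, adjusted p = 2.33e-07), which were all called higher at the same sum too, by 2.40 to 2.88. Chosen after their values were seen, the lower targets Ephx1 (-2.80), Abhd4 (-1.87), and Polh (-1.80) were at -3.44, -2.50, and -2.47 at the same sum, where Ephx1 had the largest difference of the list. Between hybrid cells and EPSCs, Tnfrsf10b (0.36, adjusted p = 0.0114) and Plk3 (0.41, adjusted p = 0.0263) were called higher, whereas Pmaip1 (0.14, adjusted p = 0.729) and Perp (-0.22, adjusted p = 0.228) were not called. Between replicates, 27 of the 39 other targets in EPSCs and 24 in hybrid cells were higher in replicate 1, by medians of 0.10 and 0.11.

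Among 31 regulators of p53, 30 were tested, and 7 were higher and 4 lower in hybrid cells than in EPSCs, with a median of 0.04 and against 22.5% and 21.9% of all genes. Cdkn2a was the regulator changed more than 2-fold. Its locus encodes Arf, which sequesters Mdm2, and the kinase inhibitor p16, and values per gene do not separate them. It was at 30.9 and 29.3 FPKM in hybrid cells, 13.5 and 12.7 FPKM in EPSCs, 33.0 and 33.0 FPKM in NSCs, and 9.97 and 11.6 FPKM in ESCs. Cdkn2a was higher in hybrid cells than in EPSCs (log2 fold change 1.14 ± 0.08, adjusted p = 0.000136). As deposited, its means in hybrid cells and NSCs were close, at 30.1 and 33.0 FPKM. At the same sum it was lower in hybrid cells than in NSCs (-0.74, adjusted p = 6.59e-05). Against NSCs, 21 regulators were higher and 4 lower, where 44.5% and 42.0% of all genes were, and 16 and 11 at the same sum, where 30.3% and 57.6% were. The largest differences were those of the deacetylase Sirt1 (2.46 ± 0.09, adjusted p = 1.23e-07), the kinase Hipk2 (-2.42 ± 0.09, adjusted p = 1.63e-07), and the ligase Topors and deubiquitinase Usp7 (2.30 ± 0.11 and 1.97 ± 0.06), which at the same sum were 1.93, -3.17, 1.72, and 1.37 in this order.

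Genes that p21 represses through the DREAM complex were called at shares near those of all genes, with 5 of 20 higher and 5 lower in hybrid cells than in EPSCs, where 22.5% and 21.9% of all genes were, and a median of -0.04. None of them changed more than 2-fold. Relative to NSCs 13 were higher and 5 lower, and 9 and 9 at the same sum, where the shares of all genes were 44.5% and 42.0%, and 30.3% and 57.6%. The largest differences as deposited were those of Mybl2 (log2 fold change 4.02 ± 0.06, adjusted p = 2.41e-09), Ccne1, which encodes cyclin E1 (82.1 FPKM in hybrid cells and 17.1 in NSCs, log2 interval 2.05 to 2.34, adjusted p = 3.74e-08), Mcm5 (1.23 ± 0.08, adjusted p = 3.12e-06), and Foxm1 (-1.48 ± 0.09, adjusted p = 2.32e-06), at 3.46, 1.61, 0.62, and -2.11 at the same sum.

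Of the BCL2 family partners of Bax and Puma, 12 of 13 were tested, and 2 were higher and 4 lower in hybrid cells than in EPSCs, where 22.5% and 21.9% of all genes were. Hrk, a BH3-only gene, was at 0.706 and 0.850 FPKM in hybrid cells and 2.86 and 2.58 FPKM in EPSCs (log2 fold change -1.07 ± 0.08, adjusted p = 0.000207). The anti-apoptotic genes Bcl2 and Bcl2l2 were lower and Mcl1 was higher in hybrid cells than in NSCs. Bcl2 was at 0.125 and 0.228 FPKM in hybrid cells and 4.97 and 5.44 FPKM in NSCs (-2.40 ± 0.08, adjusted p = 6.77e-08), whereas Mcl1 was at 148 and 147 FPKM in hybrid cells and 44.5 and 47.2 FPKM in NSCs (1.67 ± 0.05, adjusted p = 4.45e-08), and at the same sum the differences were -3.41 and 1.06. Bcl2l2 (-1.67 ± 0.13, adjusted p = 9.13e-06) and the BH3-only gene Bid (2.30 ± 0.14, adjusted p = 2.18e-06) were at -2.35 and 1.80 at the same sum. The ratio of Bax to Bcl2l1 within a library was 7.74 and 6.58 in hybrid cells, 7.80 and 5.74 in EPSCs, 9.60 and 9.33 in ESCs, and 13.3 and 12.5 in NSCs, so hybrid cells overlapped with EPSCs and with neither other group.

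**Figure D4:**
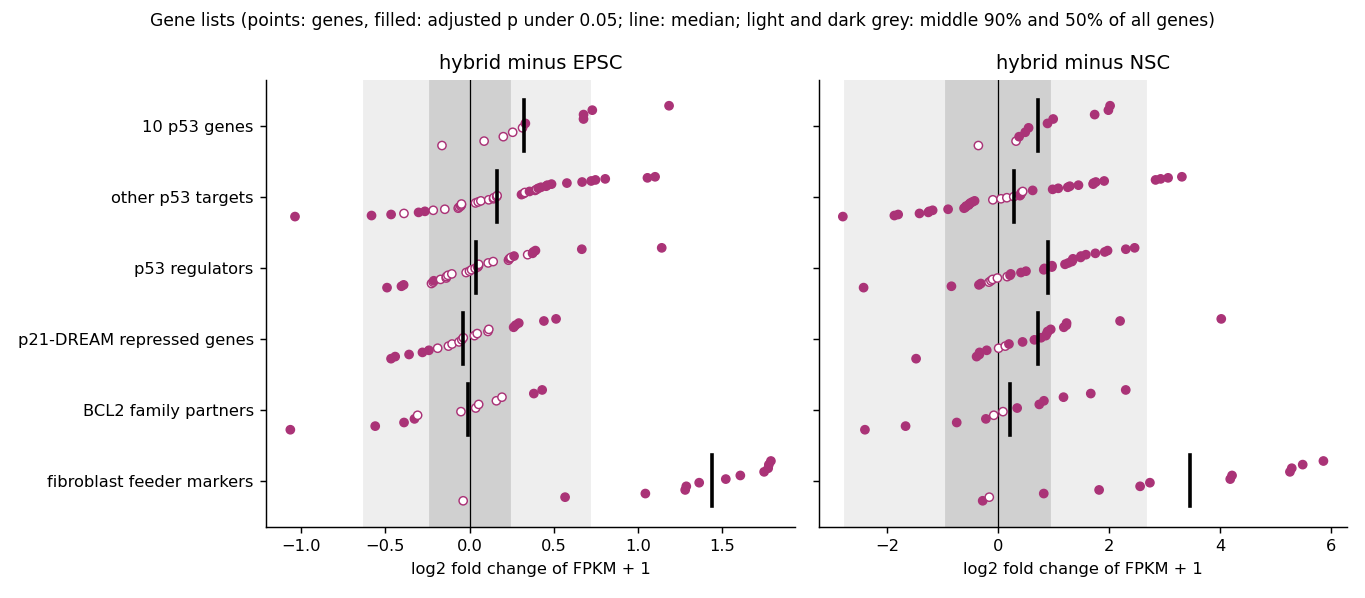
Log2 fold change of FPKM + 1 in hybrid cells against EPSCs and against NSCs for the 10 p53 genes and 5 other lists, with 1 point per gene tested, filled where the adjusted p was under 0.05, a line at each median, and the central 50% and 90% of all genes in grey. Against EPSCs the medians are 0.32 for the 10 genes, 0.16 for the other targets, and 1.44 for the fibroblast markers.

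Over the 8 libraries, the genes whose log2(FPKM + 1) followed Trp53 most closely were Patl1 (Pearson's r = 0.9991), Rrp9 (0.9988), and Rps4x (0.998), and 2377 genes reached an r of at least 0.9. Those closest to Cdkn1a were Lig3 (0.9924), Pdzd11 (0.9884), and Dld (0.9881), with 341 genes at 0.9 or more. These values describe 4 pairs of libraries from 4 lines, and many genes that separate NSCs from pluripotent cells reach them.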

How the data were processed

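The authors trimmed paired reads of stranded poly-A libraries with skewer 0.2.2, aligned them to mm10 with STAR 2.7.9a, and computed FPKM with Cuffnorm of Cufflinks 2.2.1, and the deposited values are FPKM per gene and library. The gene annotation, the strand setting, and the library normalization are not given in the sources used here. All 8 columns were mapped by their labels. Gene positions and promoter windows came from RefSeq GRCm38.p6, and exon overlaps and depth from GENCODE annotation of the same build, with a fragment length of 200 nucleotides assumed.

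The members and gene lists were chosen with earlier results of these data known. Comparisons used limma 3.58.1 in R 4.3.3 on log2(FPKM + 1), with trend, 4 groups in one fit (4 residual and 3.25 prior degrees of freedom), and covered 13239 genes whose mean FPKM reached 1 in any group. Fold changes are on the scale of FPKM + 1, tests were two-sided, and genes were called at a Benjamini-Hochberg adjusted p under 0.05. The p-values rest on the spread between 2 libraries of a line, pooled over the 4 lines and moderated over all genes, which may be technical. The members differed more between libraries in EPSCs and hybrid cells than in ESCs and NSCs. The pooled spread can therefore understate that of EPSCs and hybrid cells. The outcome of a check of the fit on simulated data is not given here, and no conclusion is drawn from it. A rule without a test, a mean FPKM over 3 and a ratio over 3, was also applied. Tables and figures were made with Python 3.11.15 (pandas 2.3.3, matplotlib 3.10.9). Named were all members, up to 4 genes per list and comparison called with over 2-fold change, from which the text gives those of hybrid cells against EPSCs and, other than cell type markers, against NSCs, and the 3 genes most like Trp53 and Cdkn1a. In the lists, 3 symbols were matched through synonyms. The motif was scored on 300-base windows. Alternatives were added constants of 0.1 and 0.5, no filter and a filter at 5 FPKM, each library scaled to sum to 1000000, quantile normalization, the replicate number as a block, a fit of the compared groups alone, and each library left out in turn, which came to 16 per value. The exons of Cdkn1a overlap those of AC167363.2 on the opposite strand by 273 bases, and whether the counting used strand is not given.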

Additional observations from a re-analysis of the deposited data

How the results depend on the processing

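For the 10 genes in the 6 comparisons, 438 of the values recomputed under changed settings and 417 of those without 1 library kept their direction and their side of the threshold, 23 and 29 came to pass it, 6 and 23 ceased to pass it, and 13 and 11 changed sign. The cause of the differing FPKM sums was not tested. For hybrid cells against NSCs, Bax turned to -0.24 both at the same sum and after quantile normalization, Ccng1 to -0.13 and -0.033, and at the same sum alone Trp53inp1 to -0.29 and Aen to -0.060. For EPSCs against NSCs, Bax turned to -0.49 and -0.48 and, at the same sum, Phlda3 to -0.29. Against ESCs, Trp53 in hybrid cells turned to -0.084 after quantile normalization, and in EPSCs Phlda3 turned to -0.040 and -0.059 and, after quantile normalization, Sesn2 to -0.016. Among the counts against NSCs, the 8 members higher in hybrid cells became 4 at the same sum, the 0 lower became 2 at the same sum and 2 after quantile normalization and 1 with the compared groups alone, and the 2 lower in EPSCs became 5 in both scalings. Against ESCs, the 1 member lower in hybrid cells became 2 in both scalings, with the compared groups alone, and with the replicate block. Against the midpoint, 1 member was lower at the same sum. Shares of all genes are given above for the same sum against NSCs and the midpoint only. Counts under the other settings describe the members alone. By the rule of FPKM and fold, thresholds of 2 in place of 3 added Aen (ratio of means 2.34) against EPSCs. Against NSCs they added Phlda3 (2.04) and Bbc3 (2.02). Against ESCs they added Ccng1 (2.43, higher) and Bbc3 (0.493, lower) in hybrid cells. In EPSCs against ESCs they added Cdkn1a (2.56, higher), Bbc3 (0.456, lower), and Aen (0.396, lower). The share of all genes at thresholds of 2 is not given here. With thresholds of 3, the same sum lowered the members to 0 for hybrid cells and 1 for EPSCs against NSCs.

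When 1 library at a time was dropped, the log2 fold change of hybrid cells against EPSCs ran from -0.27 to 0.44 for Bbc3. For Sesn2 it ran from -0.37 to 0.044. Against ESCs, Sesn2 in hybrid cells ran from -0.26 to 0.16. For EPSCs, Bax ran from -0.046 to 0.29 against NSCs. Against ESCs, Phlda3 in EPSCs ran from -0.13 to 0.17 and Trp53inp1 from -0.41 to 0.069. Cdkn1a against the midpoint ran from -0.21 to 0.17. A library left alone in its group was assumed to vary like the others.

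The replicate numbers of the labels were also used as a block. Deviations from the group means correlated by r = 0.28 between EPSCs and hybrid cells and between -0.11 and 0.07 for other pairs of groups, and 2 pairs do not show that the numbers pair the samples. With the replicate block, 6060 genes in place of 5881 were called between hybrid cells and EPSCs, of which 5714 were shared. The following counts are in the order hybrid cells against EPSCs, NSCs, and ESCs, EPSCs against NSCs and ESCs, and the midpoint. Of all 13239 genes, 6060, 11511, 8757, 11441, 8250, and 10311 were called in place of 5881, 11449, 8667, 11409, 8079, and 10223. The members called were 6, 8, 7, 8, 5, and 9 in place of 5, 8, 6, 6, 5, and 8. Bax against EPSCs was among those gained (0.26, adjusted p = 0.0376). With 2 libraries per line, depth limited the members little, since the fewest fragments behind a value gave a counting error of 5.37%, and the spread between libraries set the intervals.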
